A study of Mus musculus with 8 samples.

Results

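The C-type lectin and NK-type lectin receptors are cell surface proteins that share the C-type lectin fold. The genes described here are those whose mouse symbol begins with Clec and a digit, with Cd209 or with Klr and a letter from a to k, together with Mgl2, Cd207, Cd69 and Olr1. In the RefSeq annotation of GRCm38.p6 78 genes met this rule, 57 of them had a probe that could be named on the array, and 23 gave a test among the 17301 genes tested in all. The rule reads symbols only.

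The cells were haematopoietic stem and precursor cells (HSPCs) taken from the marrow of 4 mice. Every culture of both groups carried the Runx1 Δ/Δ genotype, in a strain of mixed C57Bl/6 and 129SvJ background. The protein lost, Runx1, is a transcription factor that directs blood formation, and the labels used here state neither how its deletion was driven nor how old the animals were. Marrow depleted of lineage-positive cells grew for 2 days with SCF, Flt3 ligand, IL-11 and IL-3. From each mouse 1 culture then received a retroviral control shRNA and 1 an shRNA against Pcgf1, a subunit of the Polycomb complex PRC1.1, and puromycin selection lasted 36 h. RNA of the 8 cultures was read on 8 one-colour Agilent arrays, so each group held 4 cultures from separate animals, paired by mouse.

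Many receptors of this fold work in myeloid cells as sensors of sugars, lipids and dead cells, and either couple through the adaptors Fcer1g or Tyrobp to the kinase Syk or carry an inhibitory motif that recruits phosphatases. The Klr genes encode lectin-like receptors best known from natural killer (NK) cells, where they read MHC class I and stress-induced ligands, and several Clec2 proteins are ligands of the Klrb1 receptors. Most of these genes lie in clusters, the largest being the NK gene complex on mouse chromosome 6.

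Between 54.8% and 62.0% of an array's 43379 spots, controls aside, had a signal well above background and 0 were saturated. With 4 arrays a group, precision is limited by their number. Signals are given as log2 of the processed intensity relative to the 75th percentile of the array, so 0 is that percentile, and the lowest signals called above background lay between −5.94 and −5.22. The Pcgf1 transcript was at 39.0% of its control level (log2 change −1.36, SE 0.12, limma adjusted p 0.0197, n = 4 per group). Both cultures of mouse 4 stood apart from the rest, with scores of 44.8 and 38.3 on a first principal component that held 38.2% of the variance, against −30.1 to 2.9 for the other 6 arrays, so calls are also given without this mouse. Of 12 genes fixed as markers of haematopoietic stem and progenitor cells 11 were tested and 0 of the 12 were below background on all arrays.

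Detection differed by family, with most Clec4 genes present on every array and most Klr genes on none. Of the 57 genes with a probe 20 were well above background on all 8 arrays (35.1%, against 52.4% of all probes), 11 on 1 to 7 arrays and 26 on 0 (45.6%, against 32.9% of all probes). The units differ, since the lectin receptor genes are read from 1 probe each and the shares of all probes count every probe, named or not. Of the 9 Clec4 genes with a probe 7 were detected on every array and 2 on none. The 7 included the Syk-coupled receptors Clec4n (Dectin-2), Clec4d (MCL) and Clec4e (Mincle), which sense fungal and mycobacterial cell walls. Of the 22 Klr genes with a probe only Klrg2 was detected on all 8 arrays, and 16 were on 0. Among these 16 were Klrk1 (NKG2D), which recognises stress-induced ligands, the NKG2 genes Klrc1, Klrc2 and Klrc3, and Klrb1c, which encodes the NK1.1 antigen. None of the 5 Cd209 genes with a probe (the DC-SIGN family of dendritic cells and macrophages) passed the filter on dim probes. Of the 5, Cd209a, Cd209d and Cd209e were each detected on 1 control array and 1 array with the Pcgf1 shRNA. In both groups the signal of these genes was highest in mouse 4, the animal that stood apart.

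**Figure D1:**
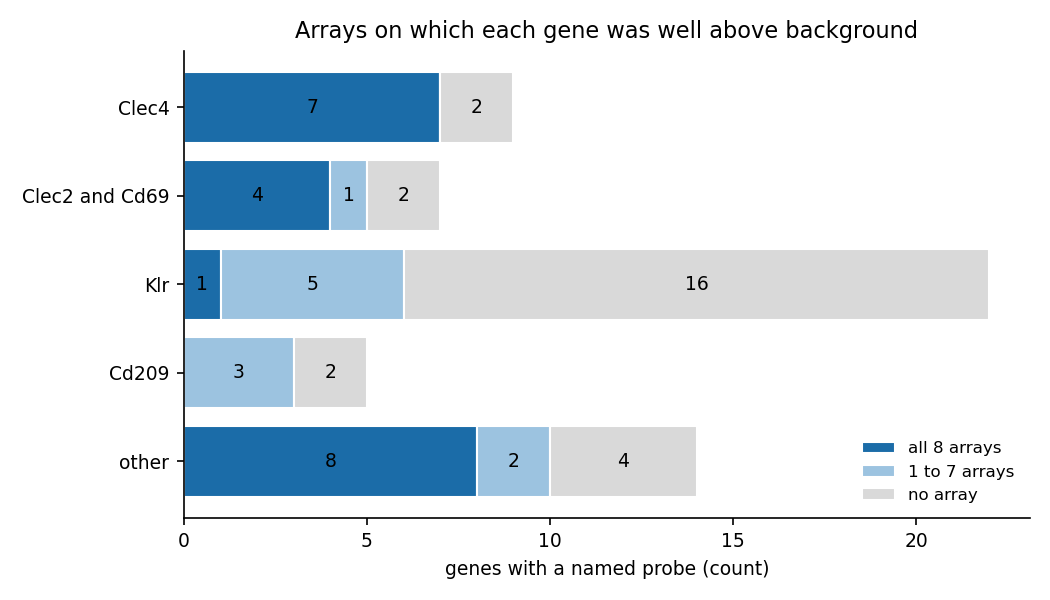
Number of lectin receptor genes with a named probe, by family (rows; "other" holds the remaining Clec genes, Mgl2, Cd207 and Olr1), split by the number of arrays on which the probe was well above background. Of the Clec4 genes 7 of 9 were detected on all 8 arrays and 2 on none, and of the Klr genes 1 of 22 on all 8 and 16 on none.

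The 34 genes with a probe but no test were above background on at most 2 of the 4 arrays of either group. Besides the Klr and Cd209 genes they included Cd207 (langerin), Clec12a, an inhibitory receptor of myeloid cells, Clec4a1, Clec4f, Clec1a, Clec14a, Clec18a, Clec2e, Clec2h, Clec2m and Clec3a. Cd207 and Clec12a each reached background on 2 control arrays and 1 array with the Pcgf1 shRNA. Another 21 genes of the rule, among them Clec7a (Dectin-1) and Clec9a, had no probe that could be named and were not analysed here. Genes of the Clec4a, Clec2, Klra and Klrb1 groups are close paralogues, which a single probe may not separate, and their values are uncertain to that extent.

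Without a block, 0 of the 23 tested genes passed an adjusted p of 0.05 (limma, Benjamini-Hochberg over all genes tested). Over all genes 132 or 0.763% passed, 0.595% higher and 0.168% lower. An unadjusted p under 0.05 was found for 8 of the 23, against 12.2% of all genes. The lowest adjusted p was 0.0571, for Clec4b1. With mouse as a block, which compares the cultures of the same animal, 7 of 23 passed (30.4%, against 5.32% of all genes). Of these Klrg2, Clec2i, Mgl2 and Clec2g rose and Clec4a3, Clec4b1 and Clec4a2 fell. Genes that rose with the block made up 2.91% of all genes and genes that fell 2.42%. With slide as a block 1 of 23 passed, Clec4a3, which fell; of all genes 0.907% passed there, 0.63% higher and 0.277% lower. The median log2 change of the 23 genes was −0.06, against 0.00 for all genes, with 11 estimates higher and 12 lower.

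Within mice 6 of the 23 genes were higher with the Pcgf1 shRNA in all 4 animals and 8 were lower in all 4, a share of 60.9% that compares with 31.7% of all genes. The values of the 2 groups did not overlap for 3 of the 23 genes, Clec4a3, Clec4b1 and Klrg2, and for 7.17% of all genes. The calls with the block changed when an animal was left out, over all genes as well as for the lectin receptor genes. When mouse 2 was left out, 0 of all 17300 genes passed (2435 had an unadjusted p under 0.05, 14 of the 23 lectin receptor genes among them), although the changes stayed close, at 1.23 for Klrg2, −0.71 for Clec4b1 and −0.84 for Clec4a3. Klrg2 and Clec4b1 passed without mouse 1, where 284 genes did, and Klrg2, Clec4b1 and Clec4a3 without mouse 3, where 306 did. Without mouse 4 Klrg2 passed with the block, as did Clec11a (145 genes in all), and without a block Klrg2, Clec4b1 and Clec4a2 passed (363 genes in all).

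**Figure D2:**
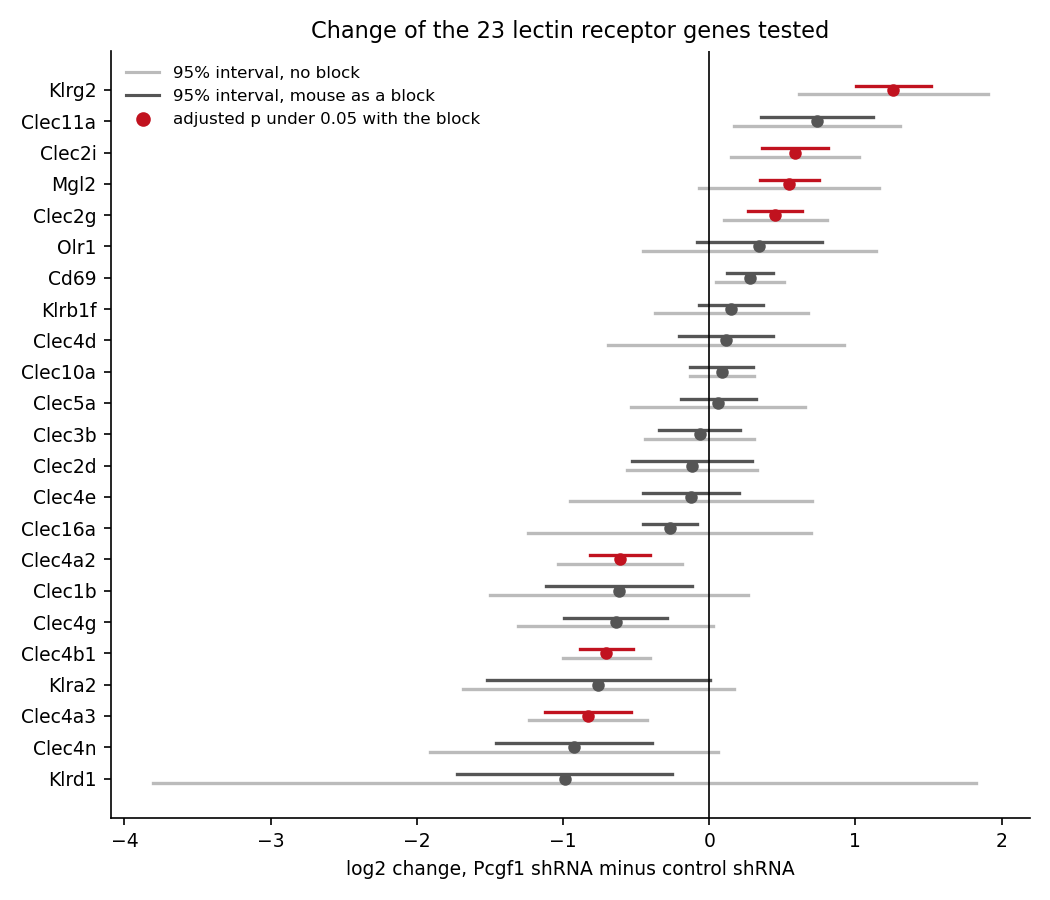
Log2 change (Pcgf1 minus control shRNA) of the 23 lectin receptor genes tested, with unadjusted 95% intervals from limma without a block (light grey) and with mouse as a block (dark grey, or red for the 7 genes with an adjusted p under 0.05 there). Klrg2 stands highest at 1.26 and the intervals of Klrd1 and Clec4n without a block are wide.

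Of the 7 Clec4 genes tested 6 lie in 1 stretch of the genome, among them the 3 that fell with the block. This stretch of 1.02 Mb on chromosome 6 (122270596 to 123289871) holds 10 genes of the rule, 8 with a probe and 6 tested. From one end to the other the tested genes follow as Clec4a3, Clec4b1, Clec4a2, Clec4n, Clec4d and Clec4e. The first 3 fell with the block. Clec4n had a larger but more variable difference, and Clec4d and Clec4e, at the far end, had estimates close to 0. Clec4a4, which lies between Clec4a3 and Clec4b1, had no named probe, and Clec4a1 was above background on 0 arrays. Whether the changes of these genes differ from each other was not tested.

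Clec4a3 (DCIR3) is a member of the dendritic cell immunoreceptor group. Its log2 signal in mice 1 to 4 was 0.16, 0.11, −0.17 and −0.25 with the control shRNA and −0.66, −0.70, −1.36 and −0.74 with the Pcgf1 shRNA. Every Pcgf1 culture lay below every control culture. The log2 change was −0.83 (SE 0.18 without a block). Its adjusted p was 0.0900 without a block, 0.0257 when cultures were paired by mouse and 0.0444 with slide as a block. Mice 1 and 2 shared a slide, on which the change was −0.81, and on the slide of the other mice it was −0.84.

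Clec4b1 (DCAR) is an activating receptor that pairs with Fcer1g. The control cultures read 1.66, 1.80, 1.83 and 1.38 in log2 signal and those with the Pcgf1 shRNA 1.04, 1.10, 0.97 and 0.72, again with no overlap. This is a log2 change of −0.70 (SE 0.13), a signal 1.63-fold lower, with −0.65 and −0.76 on the 2 slides. The adjusted p was 0.0571, against 0.0164 when paired by mouse and 0.0522 with slide as a block.

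Clec4a2 (DCIR) carries an inhibitory motif in its cytoplasmic tail and restrains dendritic cells. In log2 signal it stood at 3.37, 3.24, 3.48 and 2.74 in control cultures and at 2.75, 2.76, 2.67 and 2.22 with the Pcgf1 shRNA. The groups overlapped only through mouse 4, whose control culture lay below the Pcgf1 cultures of mice 1 and 2, and each animal's Pcgf1 culture was the lower. The log2 change was −0.61 (SE 0.19, adjusted p 0.235, and 0.0226 when paired by mouse), with −0.55 and −0.67 on the 2 slides. A second detected probe of the gene had a log2 change of −0.68, and the third probe was detected on 0 arrays.

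The differences of Clec4n varied most between mice among the 6. Its log2 signal was 4.84, 4.82, 4.42 and 3.38 with the control shRNA and 4.25, 3.84, 2.70 and 2.97 with the Pcgf1 shRNA, lower in each of the 4 mice with differences from −1.72 in mouse 3 to −0.41 in mouse 4. The change of −0.92 did not pass without a block (adjusted p 0.448) or with it (0.0691). Clec4d, which forms a complex with Clec4e, read 4.36, 4.22, 3.86 and 2.81 and then 4.36, 4.14, 3.80 and 3.40, a log2 change of 0.11 with an unadjusted 95% interval of −0.21 to 0.43 with mouse as a block. For Clec4e the values were 4.44, 4.17, 4.26 and 3.01 against 4.39, 4.14, 3.67 and 3.19, a change of −0.12 with an interval of −0.45 to 0.21. The direction of the Clec4d estimate turned without mouse 4 (−0.044) and that of Clec4e without mouse 3 (0.034). In mouse 4 the control culture had the lowest control signal of Clec4n, Clec4d and Clec4e.

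**Figure D3:**
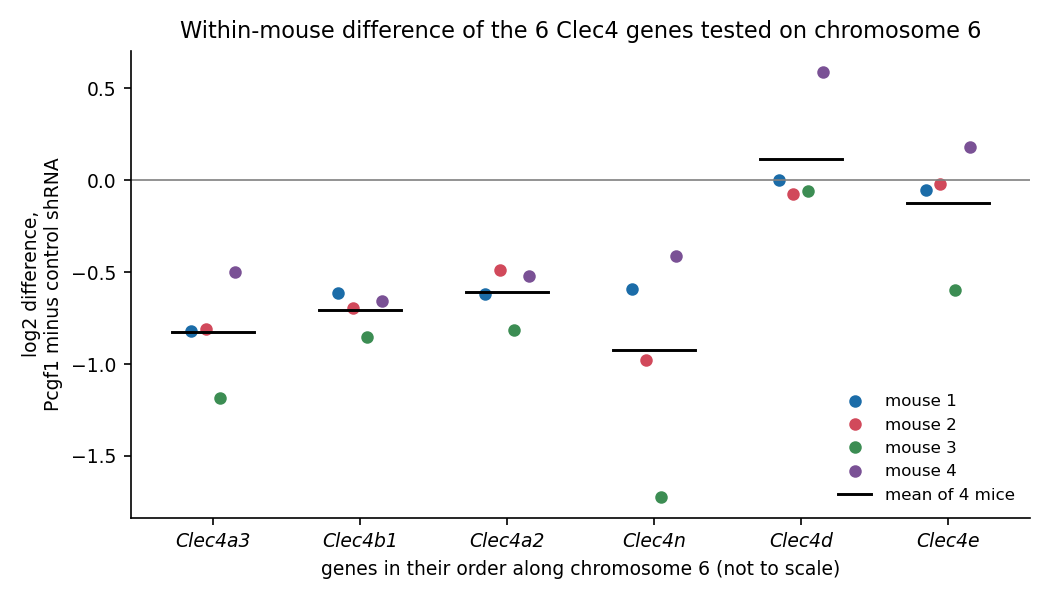
Difference in log2 signal between the Pcgf1 and control shRNA cultures of each mouse (points) and its mean (bars) for the 6 tested Clec4 genes in their order along chromosome 6. Clec4a3, Clec4b1, Clec4a2 and Clec4n lie below 0 in all 4 mice, whereas Clec4d and Clec4e have mice on both sides.

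Upstream sequences of 4 genes are shown because genes that passed with the block and genes that did not lie in this stretch together. That of Clec4a2, which also fell with the block, is not shown. Each run is the 250 bases before the RefSeq start site, 5′ to 3′ on the gene's strand, GRCm38.p6, with matches to GAGGAA or its reverse complement TTCCTC, the core bound by PU.1 and other ETS factors of myeloid cells, in capitals. They are Clec4a3 at chr6:122952265-122952514 (+), Clec4b1 at chr6:123049712-123049961 (+), Clec4d at chr6:123261857-123262106 (+) and Clec4e at chr6:123289872-123290121 (−).
Clec4a3: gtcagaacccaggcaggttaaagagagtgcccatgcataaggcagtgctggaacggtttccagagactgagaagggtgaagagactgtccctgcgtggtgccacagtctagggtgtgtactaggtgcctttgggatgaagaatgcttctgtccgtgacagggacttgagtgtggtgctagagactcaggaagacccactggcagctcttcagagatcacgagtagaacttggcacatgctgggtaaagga
Clec4b1: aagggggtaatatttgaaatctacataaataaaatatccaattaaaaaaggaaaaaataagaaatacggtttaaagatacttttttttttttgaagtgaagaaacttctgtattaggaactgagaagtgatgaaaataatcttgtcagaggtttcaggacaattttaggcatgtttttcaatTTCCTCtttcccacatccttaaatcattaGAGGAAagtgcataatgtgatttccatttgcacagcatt
Clec4d: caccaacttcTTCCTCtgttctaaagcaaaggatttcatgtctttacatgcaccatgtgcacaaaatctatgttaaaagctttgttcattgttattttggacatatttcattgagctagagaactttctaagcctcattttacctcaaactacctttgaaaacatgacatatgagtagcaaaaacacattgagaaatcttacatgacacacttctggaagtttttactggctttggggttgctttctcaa
Clec4e: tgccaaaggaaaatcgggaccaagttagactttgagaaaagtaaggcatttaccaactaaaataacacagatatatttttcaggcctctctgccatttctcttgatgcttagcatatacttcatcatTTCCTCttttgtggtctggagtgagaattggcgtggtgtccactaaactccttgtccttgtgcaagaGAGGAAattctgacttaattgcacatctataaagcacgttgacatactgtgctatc
In the 250 bases shown, Clec4b1 and Clec4e hold 2 matches each, Clec4d holds 1 and Clec4a3 holds 0. In windows of 300 bases, which include 50 after the start, Clec4d holds 3, Clec4b1 and Clec4e 2 each, and Clec4a2 0. For Clec4a3 such a window holds 0 at the start shown and 1 at a second annotated start. Over the windows of 300 bases in the table, which run from 250 bases before to 50 after the start, GAGGAA on either strand occurred in 38 of 68 windows of 60 lectin receptor genes (55.9%) and in 28.3% of all 32851 windows. For the 20 windows of tested members the share was 55.0%, and for the 48 of members without a test 56.2%. TGTGGT, the core bound by RUNX proteins, occurred on either strand in 26.5% of the members' windows and in 16.8% of all. Some genes have several windows that overlap, and a match is a run of letters and does not show binding.

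Klrg2 had the largest rise of the 23 genes. It encodes a lectin-like receptor of the killer cell G subfamily and lies on chromosome 6 (38616329 to 38638815), away from the NK gene complex. Its log2 signal was −2.24, −2.48, −2.31 and −2.98 in the control cultures and −0.87, −1.12, −0.92 and −2.06 with the Pcgf1 shRNA. All Pcgf1 cultures were above all control cultures, mouse 4 being the lowest in either group. The log2 change was 1.26 (2.40-fold, SE 0.28), with 1.36 and 1.16 on the 2 slides. The adjusted p was 0.101, against 0.0141 when paired by mouse and 0.0893 with slide as a block. With normexp background correction the change was 0.94.

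The Klrg2 upstream stretch is shown because it is richer in CG dinucleotides than those of most other members, and the PRC1.1 subunit Kdm2b is known to bind unmethylated CG. It is the 250 bases before a RefSeq start, at chr6:38637240-38637489 (−), GRCm38.p6, with CG in capitals. The annotated gene reaches to 38638815 on this strand, so the stretch lies inside it, downstream of its outermost end.
Klrg2: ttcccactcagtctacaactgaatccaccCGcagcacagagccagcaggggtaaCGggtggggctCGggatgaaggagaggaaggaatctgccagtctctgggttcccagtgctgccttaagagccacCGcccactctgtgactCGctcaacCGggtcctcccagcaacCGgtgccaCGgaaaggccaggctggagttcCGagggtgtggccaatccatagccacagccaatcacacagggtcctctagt
This stretch holds 9 CG, and the window of 300 bases around the start holds 12. The median over the members' windows was 3, with 83.8% of them at 5 or fewer, against a median of 7 and a share of 43.6% over all windows. Counts in other windows of tested members ran from 0 for Clec4d to 25 for Clec16a, a gene of autophagy that carries the family name only, and Clec16a did not pass (log2 change −0.27, adjusted p 0.0992 when paired by mouse). The windows of the other 3 genes that rose held 8 (Mgl2) and 4 (Clec2g and Clec2i), and those of the 3 genes that fell between 1 and 7. Binding of Kdm2b and methylation were not measured in these cultures. A link between CG content and the changes was not tested.

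The NK gene complex, a stretch of 2.64 Mb on chromosome 6 (128609227 to 131247716), holds 45 genes of the rule, of which 30 had a probe and 9 were tested. Of the 9, 2 rose with the block, Clec2i and Clec2g, where 2.91% of all genes rose, and the estimates were 5 higher and 4 lower. Clec2i (Clr-g) is a ligand of the receptor Klrb1f. Its control cultures read −0.70, −1.25, −0.76 and −1.28 in log2 signal and the Pcgf1 cultures −0.34, −0.45, −0.08 and −0.78. The groups overlapped, but each mouse's Pcgf1 culture was higher, with a log2 change of 0.59 (SE 0.19, adjusted p 0.264, and 0.0308 when paired by mouse) and values of 0.58 and 0.59 on the 2 slides.

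Clec2g, a paralogue in the same complex, read −1.64, −1.90, −1.72 and −2.12 in control cultures and −1.30, −1.39, −1.15 and −1.74 with the Pcgf1 shRNA. It was higher in 4 of 4 mice by 0.34 to 0.58. The log2 change was 0.45 (SE 0.15, adjusted p 0.282, and 0.0335 when paired by mouse), and 0.30 with normexp background correction. Its other probe was detected on 0 arrays. Clec2d (Clr-b, the ligand of the inhibitory Klrb1b) stood at −0.12 in log2 change (adjusted p 0.720 when paired by mouse). Klrb1f itself was at the edge of detection, with a highest signal of −4.38.

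Cd69, an early activation antigen of lymphocytes encoded in the same complex, was higher in each of the 4 mice, from 0.29, −0.02, 0.21 and 0.05 in control cultures to 0.56, 0.27, 0.45 and 0.37. The groups overlapped, since the Pcgf1 culture of mouse 2 lay below the control culture of mouse 1, and the log2 change of 0.28 did not pass (adjusted p 0.318, and 0.0678 when paired by mouse). Clec1b (CLEC-2), the podoplanin receptor of platelets and megakaryocytes, read 1.80, 1.89, 1.72 and 2.53 against 1.59, 1.18, 0.38 and 2.33, lower in 4 of 4 mice with a log2 change of −0.62 that did not pass (adjusted p 0.582, and 0.144 when paired by mouse). Without mouse 3 the change was −0.37. The megakaryocyte and platelet markers, of which 7 of 8 were tested, had 0 calls with or without the block and a median log2 change of −0.14. Their summed signal ranged from 56.1 to 113 in control cultures and from 36.8 to 127 with the Pcgf1 shRNA, in units of the 75th percentile.

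Klrd1 (CD94), the partner chain of the NKG2 receptors, varied more between mice than between shRNAs. Its log2 signal was −4.67, −2.66, −4.70 and −0.95 in control cultures and −5.95, −4.59, −5.43 and −0.95 with the Pcgf1 shRNA. Mouse 4 was highest in both groups with no difference between its cultures, and the other 3 mice had differences of −0.74 to −1.93. The log2 change of −0.99 did not pass (adjusted p 0.803, and 0.119 when paired by mouse) and was −0.40 with normexp background correction. The NKG2 genes Klrc1, Klrc2, Klrc3 and Klrk1 were above background on 0 arrays, mouse 4 included. Klra2, an inhibitory Ly49 receptor gene also expressed by myeloid cells, was dim, at −4.79, −4.84, −4.55 and −5.43 in control cultures and −5.05, −4.79, −6.42 and −6.38 with the Pcgf1 shRNA. It was above background on 4 control arrays and 2 with the Pcgf1 shRNA, and did not pass (log2 change −0.76, adjusted p 0.514). The change was −0.39 without mouse 3, −0.21 with normexp background correction, −0.43 with array weights and −0.31 on the gene's other probe, which did not pass the filter on dim probes.

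Mgl2 (CD301b) and Clec10a (CD301a) are galactose-type lectins whose genes lie close together on chromosome 11 (70130125 to 70170836) that mark dendritic cells and alternatively activated macrophages. Mgl2 read −0.15, −0.16, 0.60 and −0.21 in log2 signal with the control shRNA and 0.39, 0.50, 1.24 and 0.13 with the Pcgf1 shRNA. Mouse 3 was highest in both groups, so that the groups overlapped, yet the rise within each mouse was close to the mean of 0.55, from 0.34 to 0.66 (SE 0.08 and adjusted p 0.0280 when paired by mouse, SE 0.27 and 0.475 without a block). Clec10a stayed between 2.62 and 2.69 in the control cultures and read 2.64, 2.58, 2.95 and 2.78 with the Pcgf1 shRNA. Its log2 change was 0.09, with an unadjusted 95% interval of −0.13 to 0.30 with mouse as a block, and did not pass.

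Clec11a (SCGF), a secreted growth factor of haematopoietic and bone-forming cells rather than a receptor, read −3.95, −3.42, −4.05 and −2.91 in control cultures and −3.08, −2.62, −2.95 and −2.74 with the Pcgf1 shRNA. It was higher in 4 of 4 mice, by 0.81 to 1.11 in mice 1 to 3 and by 0.17 in mouse 4. The log2 change of 0.74 did not pass (adjusted p 0.276, and 0.0544 when paired by mouse), and without mouse 4 it was 0.93 with an adjusted p of 0.0455 with the block. With normexp background correction the change was 0.29. Clec5a (MDL-1), a Tyrobp-coupled receptor of monocytes and neutrophils, stood at 4.32, 4.28, 4.45 and 3.58 against 4.32, 4.66, 4.28 and 3.60. Its log2 change was 0.06, with an unadjusted 95% interval of −0.20 to 0.32 with mouse as a block, and turned to −0.046 without mouse 2. Clec4g, a lectin of liver sinusoids encoded beside the Cd209 genes on chromosome 8, was lower in 4 of 4 mice (log2 change −0.64, adjusted p 0.0641 when paired by mouse), and Olr1 (LOX-1, a scavenger receptor) stood at 0.34 and Clec3b (tetranectin) at −0.06, neither of which passed.

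**Figure D4:**
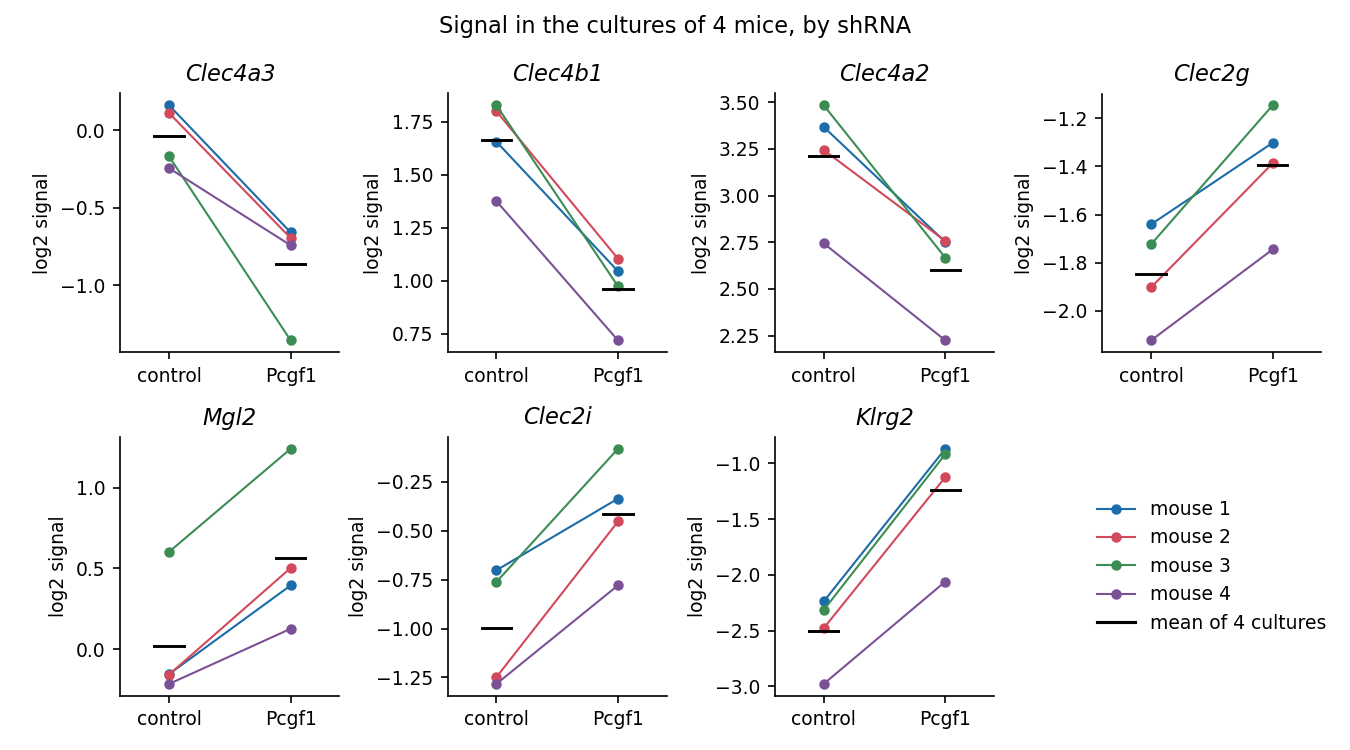
Log2 signal of the 7 genes that passed with mouse as a block, in the control and Pcgf1 shRNA cultures; coloured lines join the cultures of a mouse, and black bars are means of 4 cultures. Lines run in the same direction in all 4 mice for each gene, and the axes differ between panels, so levels of different genes cannot be compared.

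The genes can also be grouped by the signal they transmit. With the block 2.91% of all genes rose and 2.42% fell. Of 8 tested genes listed as activating receptors 0 fell and 1 rose with the block, and this was Clec2i, itself a ligand. Of 4 tested genes listed as inhibitory 3 fell, Clec4a2, Clec4a3 and Clec4b1. Of these 3, Clec4a2 carries an inhibitory motif and Clec4b1 is known to activate. The place of Clec4a3 in this list does not show that it carries such a motif. Of 5 tested genes listed as endocytic lectins, Clec16a counted among them, Mgl2 rose, of 4 in the Clec2 group Clec2g and Clec2i rose, and of the pair of secreted or matrix proteins 0 passed. These lists were drawn up with earlier results of these arrays known, and their medians of −0.03, −0.73, 0.09, 0.37 and 0.34 are descriptions.

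Among 28 tested genes that transmit signals from these receptors, out of 30 listed, 0 passed without a block, and when cultures were paired by mouse 3 fell, in a comparison where 2.42% of all genes fell. In brackets after each log2 change is its adjusted p from that paired fit. Among them were Fgr, a Src-family kinase of myeloid cells, at −1.08 (0.0334), and Sh2d1b1 (EAT-2), an adaptor of NK and myeloid receptors, at −1.36 (0.0165). Malt1, which acts with Card9 and Bcl10 downstream of Syk, stood at −0.44 (0.0580). The list's median was −0.11, with 8 estimates higher and 20 lower. Of 18 tested genes with a C-type lectin domain outside the rule, Cd302 (−1.02, 0.0257) and the eosinophil proteins Prg2 (−1.87, 0.0350) and Prg3 (−1.70, 0.0208) fell with the block, whereas Vcan (versican) was at −0.87 (0.0508). Of 6 tested genes of the ligands of Klrk1, Klrc and Klra receptors 0 passed and all 6 estimates were lower, with Ulbp1 at −0.18, H2-D1 at −0.17 and Raet1e at −0.25. Sap130, a ligand of Clec4e, stood at −0.02 and Pdpn, the ligand of Clec1b, at −0.72 (0.0718), above background on 4 control arrays and 1 array with the Pcgf1 shRNA.

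Markers of the cell types that carry these receptors moved as well. Of all genes 2.91% rose and 2.42% fell with the block, and 0.595% rose and 0.168% fell without it. Of 17 NK and T cell markers 7 were tested and 6 (Ncr1, Gzma, Prf1, Cd3d, Cd3g and Cd247) were above background on 0 arrays; Lck rose (0.91, adjusted p 0.0339), Gzmm stood at −0.34 and Il7r at −1.40 without passing, and the summed signal of the list was 7.23 to 9.22 in control cultures and 5.87 to 7.67 with the Pcgf1 shRNA. Of 12 tested dendritic cell markers 0 passed without a block and 3 fell with it (log2 change and adjusted p in brackets), Zbtb46 (−0.69, 0.0257), Ciita (−1.13, 0.0444) and Ccr7 (−0.79, 0.0450). Cd86 (−0.55), Itgax (−1.08) and Cd74 (−1.18) were lower in 4 of 4 mice without passing, and the summed signal of the dendritic list was 57.6 to 89.3 in control cultures and 38.1 to 70.5 with the Pcgf1 shRNA. Monocyte and macrophage markers had 13 tested members, of which 4 fell with the block, among them Klf4, Irf8 and Ccr2 (−1.26, −0.47 and −1.21), while Mpeg1 (−0.77) did not pass. Their summed signal was 303 to 458 in control cultures and 257 to 395 with the Pcgf1 shRNA. Lyz2 weighs most in this sum, with a mean log2 signal of 8.22 in control cultures and 7.96 with the Pcgf1 shRNA.

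Neutrophil markers differed most in summed signal, which was 85.4 to 234 in control cultures and 12.1 to 45.6 with the Pcgf1 shRNA. S100a9 and S100a8 weigh most in this sum. Their mean log2 signals were 6.66 and 4.64 in control cultures and 4.18 and 2.855 with the Pcgf1 shRNA. Of the 10 neutrophil markers tested, Ngp and Fpr1 fell without a block. With mouse as a block 7 fell and Cxcr2 rose, where 2.42% of all genes fell and 2.91% rose. Ngp and Ltf, both among the 7, were above background on 4 control arrays and 0 with the Pcgf1 shRNA. They passed the filter on dim probes only through the control group, and the sizes of their falls are uncertain. Mmp9 and Retnlg were above background on 0 arrays. Of 11 tested mast cell, basophil and eosinophil markers Tpsb2 fell without a block and 5 with it, with summed signals of 58.9 to 71.8 and 38.7 to 53.8. Of the 11 tested stem and progenitor markers Cd34 rose (0.94, adjusted p 0.0251), and with the block Meis1 rose (0.79) and Ly6a fell (−0.68); the list's median change was −0.03, with 5 estimates higher and 6 lower. The summed signal, to which Cd34 contributed with a mean log2 signal of 3.81 in control cultures and 4.75 with the Pcgf1 shRNA, was 42.4 to 49.9 in control cultures and 56.3 to 64.8 with the Pcgf1 shRNA. In RNA from a whole culture, fewer cells of a type and less RNA per cell cannot be told apart. The part of these other cell types in the changes of the lectin receptor genes was not tested.

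**Figure D5:**
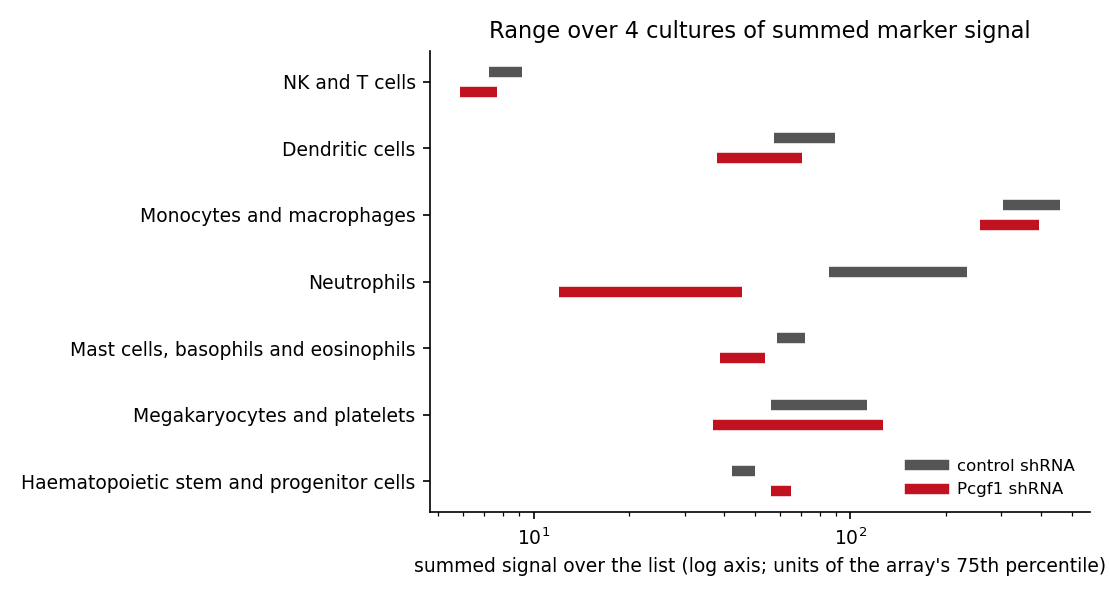
Range over the 4 cultures of each group of the summed signal of the tested genes of 7 marker lists, on a log axis, in units of each array's 75th percentile. Signals were summed before the log was taken, so the brightest genes of a list weigh most. The ranges of neutrophils, of mast cells, basophils and eosinophils, and of stem and progenitor cells do not overlap between control (grey) and Pcgf1 shRNA (red); those of the other 4 lists do.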

How the data were processed

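The members and gene lists were chosen with earlier results of these data known. The deposited scanner files hold, per the file headers, intensity values made with Agilent Feature Extraction (10.1 per the submitters' processing notes), background-subtracted and detrended within each array only. A value table deposited by the authors gives log2 values of these arrays. Over 10070 bright probes its differences between arrays matched those of the spot files, with each probe centred on its median. Its column medians ran from −0.20 to 0.11.

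Here log2 intensities were shifted to a 75th percentile of 0 on each array, control spots and 242 non-uniform values were dropped, and spots of a probe averaged. RefSeq accessions named 24375 of 41174 probes. A probe was kept if every array of at least 1 group called it well above background (22747 probes), and each gene was read from its brightest probe by mean signal. Groups were compared with limma 3.58.1 (R 4.3.3, two-sided tests, p-values adjusted by Benjamini-Hochberg over every gene tested), without a block and with mouse as a block. The pairing comes from the animals named in the labels; deviations from group means correlated at r of 0.41 to 0.64 within a mouse. Slides held mice 1 and 2, and 3 and 4, and each slide was scanned at its own time. Full values are given for genes that passed either fit, the 8 with the highest control signal, and the 5 largest changes each way; other genes named were chosen after their values were seen. The procedure was tested on simulated data. Alternatives covered block, slide, background correction, normalization, the value table, filter, probe choice, array weights and each mouse left out. The values of some genes of the comparison lists are not reported here.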

Additional observations from a re-analysis of the deposited data

Results flagged for a closer look

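In 46 groups of 4 cultures (23 genes, 2 shRNAs) 5 had a culture whose gap to the nearest of the others exceeded Dixon's 95% critical value for the group's range; chance alone flags about 1 in 20. With the Pcgf1 shRNA these were Clec4a3 in mouse 3, at −1.36 against −0.74 to −0.66 in the other mice, Clec4a2 in mouse 4, at 2.22 against 2.67 to 2.76, and Clec16a in mouse 2, at −1.47 against −2.96 to −2.79. In control cultures they were Mgl2 in mouse 3, at 0.60 against −0.21 to −0.15, and Klrb1f in mouse 2, at −5.40 against −4.76 to −4.69. For Clec4a2, Clec16a, Mgl2 and Klrb1f the other culture of the same mouse was also the extreme one of its group.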

How the results depend on the processing

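Without a block 0 lectin receptor genes passed with limma, with 8 at an unadjusted p under 0.05. The count was 7 with mouse as a replicate block, 1 with slide as a block (Clec4a3), 6 with array weights, 1 with quantile normalization (Clec4b1), and 0 with normexp correction, the value table, no filter, detection on all 8 arrays or the mean over probes. Over all genes the count was 921 with the replicate block, 77 with normexp, 0 without the filter and 1349 with array weights, against 132. With a mouse left out 0 to 3 members passed without a block and 0 to 3 with it; over all genes, leaving out mice 1 to 4 gave 1, 0, 0 and 363 calls without a block and 284, 0, 306 and 145 with it. The members' median lay between −0.12 and 0.04. Among changes of 16 named genes, direction reversed for Clec5a without mouse 2 (−0.046; 0.14 without mouse 3, 0.19 with array weights), Clec4e without mouse 3 (0.034; −0.22 without mouse 4) and Clec4d without mouse 4 (−0.044; 0.18 without mouse 2), with or without the block. The cause was not tested. Dim Klr and Cd209 probes limit what can be said of those genes.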
